A study of Mus musculus with 4 samples.

Results

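The proteasome subunit genes were taken as a list of 38 mouse genes: the alpha and beta rings of the 20S core, the immunoproteasome subunits, the ATPases, other base subunits and lid subunits of the 19S regulator, and the PA28 and PA200 activators. A gene counted as measured where the array had a probe set annotated to its symbol alone, and the brightest such probe set, averaged over the 4 arrays, stood for it. That gave 37 of the 38 genes, among 18193 genes measured in all. Psme2 had no probe set of its own. The list goes by protein function, and no measured value enters its rule.

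The values come from Affymetrix expression arrays of haematopoietic stem cells (HSC), the blood-forming cells of the bone marrow, sorted from adult mice as KLS CD48- CD150+ cells. The first group of 2 pools, called Rb family deficient, carried the genotype Rb -/- p130 -/- p107-/-, and the second group of 2 pools, called wild type, carried Rb +/+ p130 +/+ p107-/-. Loss of p107 was thus shared by both groups, and the comparison is of cells lacking Rb and p130 as well against cells lacking p107 alone. Tamoxifen was given to start recombination, cells were taken 2 weeks later, and the series' design text gives 3 mice for each pool. The sample descriptions of the second pool of each group carry a range of numbers, so the pools may differ in how many mice they held. The labels do not name the Cre driver, the strain or the sex of the mice.

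The proteasome is the protease that degrades most ubiquitin-tagged proteins of the cell, cell cycle regulators among them. Its 20S core is a barrel of outer alpha rings, which gate the entrance, and inner beta rings, which hold the catalytic sites. The 19S regulator caps the barrel: its ATPase ring unfolds the substrate and its lid removes the ubiquitin chain. Interferon induces replacement catalytic subunits that form the immunoproteasome, which cuts peptides suited to MHC class I presentation and is also abundant in blood cells at rest. Rb, p107 and p130 bind E2F transcription factors and hold back their target genes. Proteasome genes are known to be raised together by the factor Nrf1 when proteolysis is impaired, and Nrf2 is a second factor known to raise them.

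The immunoproteasome genes Psmb8 and Psmb9 lie beside the peptide transporter genes Tap1 and Tap2 in the MHC region of chromosome 17, which is why their start regions are shown. In the RefSeq annotation of build GRCm38.p6, Psmb9 (chr17:34182030-34187330, minus strand) and Tap1 (chr17:34187556-34197225, plus strand) start back to back with 225 bases between them. Psmb8 (chr17:34198195-34201454, plus strand) begins 969 bases after the end of Tap1, and Tap2 begins 3024 bases after the end of Psmb8. The first line gives the 225 bases between Psmb9 and Tap1 (chr17:34187331-34187555, plus strand), with the E2F letters TTTGGCGC in capitals. The second gives the 250 bases before the start of Psmb8 (chr17:34197945-34198194, plus strand), with a match to the interferon-gamma-activated motif TTCNNNGAA in capitals.
Psmb9-Tap1: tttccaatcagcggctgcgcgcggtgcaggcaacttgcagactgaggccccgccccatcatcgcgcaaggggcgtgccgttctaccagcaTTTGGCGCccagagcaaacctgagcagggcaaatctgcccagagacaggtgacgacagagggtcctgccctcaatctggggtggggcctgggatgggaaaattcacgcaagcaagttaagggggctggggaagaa
Psmb8: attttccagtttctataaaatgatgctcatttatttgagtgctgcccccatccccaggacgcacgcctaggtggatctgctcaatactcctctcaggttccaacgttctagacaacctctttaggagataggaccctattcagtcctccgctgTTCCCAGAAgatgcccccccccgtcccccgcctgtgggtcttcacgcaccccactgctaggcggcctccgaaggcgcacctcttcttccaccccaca
The E2F letters stand 98 bases before the start of Psmb9 and 135 bases before that of Tap1. The motif in Psmb8 stands 97 bases before its start.

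Of the 38 listed genes, 32 matched an entry of the RefSeq promoter table, and 5 motifs were searched on both strands of the 250 bases before each start. The E2F letters, TTTGGCGC or TTTCGCGC, were found in 1 of the 32, Psmb9, against 205 of 27025 genes in the table (0.759%). The antioxidant response element TGACNNNGC, the motif of Nrf1 and Nrf2, was found in Psmb5, Psmb6, Psmc6 and Psmd12, or 12.5% of members against 11.5% of all genes. The interferon-stimulated response element GAAANNGAA was found in Psmb3 and Psmd4 (6.25% against 8.18%). The motif TTCNNNGAA was found in Psmb8 alone (3.12% against 8.13%), and CCAAT in 12 members (37.5%, against 37.5% of all genes). A match is a run of letters and was not tested for binding.

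On the arrays the pools were similar, with pairwise correlations over all genes from 0.983 to 0.990. The gate could be checked in part, on the log2 scale. Slamf1, which encodes CD150, stood at 9.26 and 9.90 in deficient cells against 8.81 and 9.86 in wild type cells, with overlap. Kit stood at 9.94 and 10.45 against 11.09 and 10.47, without overlap. Cd48 stood between 5.84 and 7.09 in the 4 pools, the lowest and highest both in wild type pools. The stem cell marker Procr read 10.05 and 10.03 in deficient cells against 10.74 and 11.03 in wild type cells. Of 11 measured genes associated with HSC, 8 had a difference below 0. The other 3 were above 0: Slamf1 (0.24), Hoxb5 (0.37) and Ctnnal1 (0.75, without overlap). Of 12 measured neutrophil markers all had a difference above 0. The list includes Mpo and Elane, granule genes of immature neutrophils, which were higher in pool 2 of both groups. Mpo stood at 10.72 and 12.83 against 10.71 and 12.60, and Elane at 6.84 and 9.60 against 5.56 and 9.50. The log2 of the summed linear signal of the 12, which the brightest genes carry, was lowest in wild type pool 1. It was 16.08 and 15.63 in deficient cells against 14.40 and 15.61 in wild type cells. By the same measure erythroid markers summed to 12.71 and 11.51 against 10.86 and 12.89, and B cell markers to 10.31 and 9.46 against 9.04 and 10.18. Dendritic cell markers summed to 11.91 and 11.69 against 12.98 and 12.02. The dendritic cell list did not move as one: its 4 MHC class II genes, H2-Aa, H2-Ab1, H2-Eb1 and Cd74, which carry the sum, had differences below 0, and the other 6 had differences above 0, for a median of 0.17. The part of these cells in the differences of the proteasome genes was not tested. Rb1 stood at 9.82 and 9.72 against 9.37 and 9.58, and Rbl2, which encodes p130, at 7.82 and 8.21 against 8.94 and 8.75. Rbl1, which encodes p107, stood at 5.35 and 5.42 against 5.92 and 6.77. Whether these probe sets fall in the deleted parts is unknown here, so they check no label. For the Actb controls, a measure of RNA integrity, the 3' probe set exceeded the 5' one by 3.13 and 2.95 in deficient cells and 2.32 and 2.81 in wild type cells, without overlap. For Gapdh these values were 2.79 and 2.50 against 2.40 and 2.58, with overlap.

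Differences of the proteasome subunit genes between the deficient and the wild type pools were small, and in limma's fit over all genes no member passed an adjusted p of 0.05. Differences, deficient minus wild type on the log2 scale, ran from -0.53 for Psmd2 to 0.29 for Psmb3, with moderated standard errors (SE) from 0.14 to 0.33 and adjusted p from 0.782 to 1. The unadjusted 95% interval of the difference lay within 1 log2 unit of 0, a 2-fold change, for 34 of the 37 genes. The exceptions were Psmb3, Psmb7 and Psmd2. Most genes of the array had such an interval as well, 15876 of the 18193 measured. Adjusted calls were absent over the whole array as well (0 of 18193 genes, 0%), and the counts at an unadjusted p under 0.05 follow. In RNA from sorted bulk cells, fewer cells of a type and less RNA per cell cannot be told apart, and the p-values measure only the spread between these pools.

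At an unadjusted p under 0.05, 2 members were lower in the deficient pools, Psmc5 and Psmd12 (5.41%, against 4.04% of all genes), and 0 were higher (against 2.19% of all genes). Both deficient pools lay below both wild type pools for 13 members (35.1%), against 18.5% of all genes, and above them for 0 members, against 17.0% of all genes. The difference was below 0 for 27 members (73.0%), against 50.8% of all genes. Bright genes as a whole had more differences below 0. Among the 5064 genes with a mean at least that of the dimmest member, which the members belong to, 63.1% were below 0. In that set 25.6% had both deficient pools below both wild type pools, 10.3% had them above, 4.56% passed an unadjusted p of 0.05 as lower and 2.03% as higher. This brighter set was added after the values were seen. The median difference was -0.07 over the members, -0.0038 over all genes and -0.08 over the brighter set.

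The split of directions depended on how the arrays were set against each other. When each array was centred on its median over all genes, 20 of the 37 members were below 0, against 41.0% of all genes, and the median over the members was -0.02. Leaving out 1 pool at a time gave from 19 members below 0, with deficient pool 2 left out (against 49.96% of all genes), to 33, with wild type pool 1 left out (against 55.3%). The median over the members then ran from -0.15, with deficient pool 1 left out, to -0.0099, with deficient pool 2 left out, and was -0.12 with wild type pool 1 left out. For the 2 members at an unadjusted p under 0.05, these differences ran from -0.62 to -0.35 (Psmc5) and from -0.41 to -0.37 (Psmd12). Members at that p are not counted for these fits, because 1 group is then left with 1 pool.

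**Figure D1:**
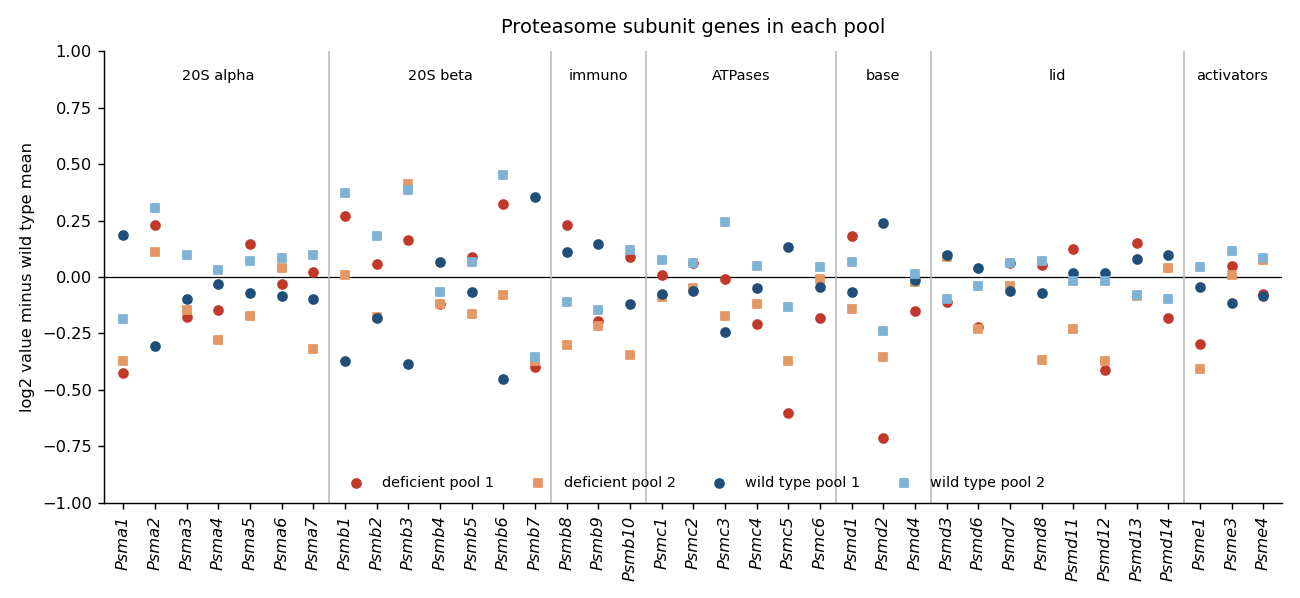
Log2 value of each of the 37 proteasome subunit genes in each pool, minus the mean of the 2 wild type pools of that gene. Circles are pool 1 and squares pool 2 of each group, red and orange for the deficient pools and dark and light blue for the wild type pools, with vertical lines between subunit groups. For 13 genes, Psmc5 and Psmd12 among them, both deficient points lie under both wild type points.

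**Figure D2:**
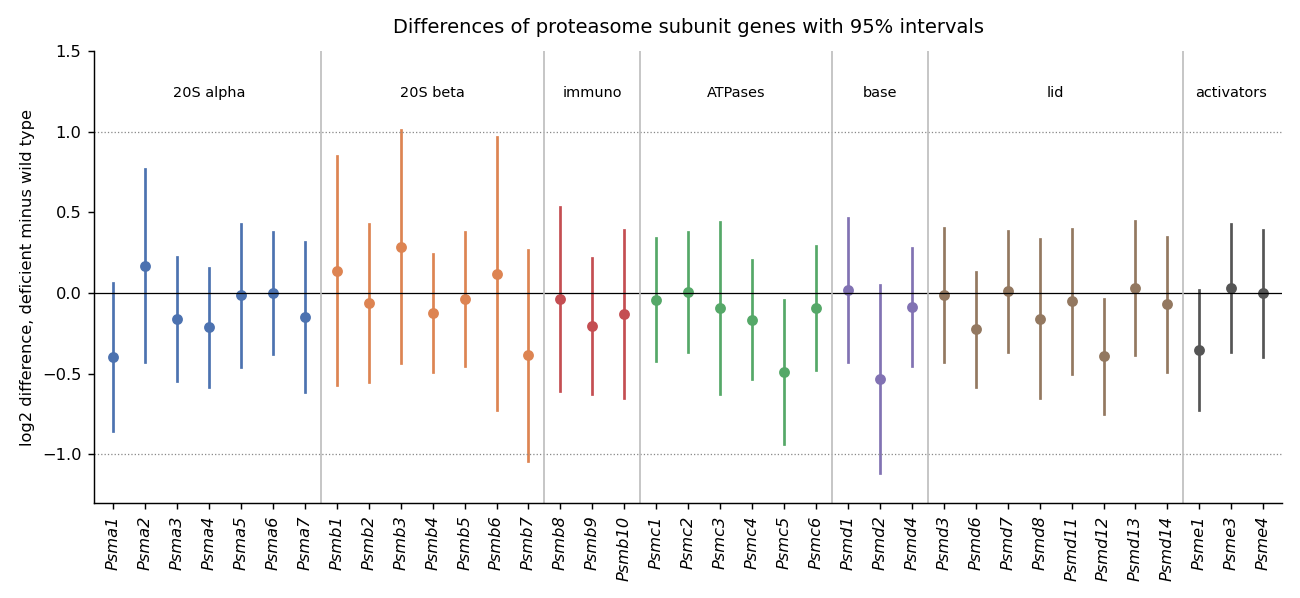
Log2 difference of each proteasome subunit gene, deficient minus wild type, with its unadjusted 95% interval from limma (2 pools in each group). Dotted lines mark 1 log2 unit on either side of 0, and the intervals of Psmb3, Psmb7 and Psmd2 cross them.

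The alpha ring genes, which form the gated ends of the core, had a median difference of -0.15 over the 7 genes, 5 of them below 0, and none passed the adjusted test. Psma1, an alpha ring subunit, had log2 values of 10.90 and 10.95 in deficient cells and 11.50 and 11.13 in wild type cells. Both deficient pools were below both wild type pools, and the wild type pools lay further apart than the deficient ones. The difference was -0.40 (SE 0.18, 95% interval -0.85 to 0.06, limma adjusted p = 0.802), or 1.32-fold lower, and -0.21 without wild type pool 1. Psma4, also of the alpha ring, stood at 10.74 and 10.61 against 10.85 and 10.92, differing by -0.21 (SE 0.15, adjusted p = 0.851) without overlap. Psma3 lay at 12.78 and 12.81 against 12.86 and 13.06, again without overlap, though deficient pool 2 and wild type pool 1 were close. Psma6 had the alpha ring value nearest 0: 12.59 and 12.66 against 12.54 and 12.70, differing by 0.0024 (SE 0.15), with the deficient pools inside the range of the wild type pools. Its sign turned with deficient pool 2 left out (-0.03) or wild type pool 1 left out (-0.08). Psma2, with 11.82 and 11.69 against 11.28 and 11.89, differed by 0.61 between its wild type pools, more than any other alpha ring gene. Leaving out deficient pool 2 took the alpha ring median to -0.03, and leaving out wild type pool 2 took it to -0.05.

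The beta ring genes, which carry or flank the catalytic sites, had a median difference of -0.04 over 7 genes, 4 of them below 0. For 7 of the 7, the pools of 1 group differed from each other by more than the groups did. Psmb5, the chymotrypsin-like subunit, stood at 11.53 and 11.28 in deficient cells and 11.38 and 11.51 in wild type cells, differing by -0.04 (SE 0.16, 95% interval -0.45 to 0.38, adjusted p = 0.981). Its groups overlapped, and its sign turned with deficient pool 2 left out (0.09) or wild type pool 2 left out (0.03). Psmb6, the caspase-like subunit, stood at 11.57 and 11.16 against 10.79 and 11.69. Wild type pool 1 held its lowest value and wild type pool 2 its highest, so the groups overlapped fully. The difference of Psmb6 was 0.12 (SE 0.33, 95% interval -0.72 to 0.97), and it ran from -0.33 without wild type pool 1 to 0.57 without wild type pool 2.

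Psmb7, the trypsin-like subunit, had values of 9.26 and 9.28 in deficient cells and of 10.01 and 9.30 in wild type cells. Only wild type pool 1 was clearly above the others. The difference was -0.39 (SE 0.26, 95% interval -1.04 to 0.27, adjusted p = 0.848), and -0.03 without wild type pool 1. Psmb3, a structural beta subunit, stood at 11.91 and 12.15 against 11.36 and 12.13. Here wild type pool 1 was the low one, and the other 3 pools were near each other. The difference of 0.29 (SE 0.29, 95% interval -0.43 to 1.01, adjusted p = 0.888) was the highest among the members, and became -0.10 without wild type pool 1. A second probe set of Psmb3 gave -0.31, with the opposite sign. Psmb1, another structural subunit, also had its lowest value in wild type pool 1, at 11.18 against 11.92 in wild type pool 2, with deficient pools at 11.82 and 11.56. Psmb4 was steadier, at 12.76 in both deficient pools against 12.95 and 12.82. Leaving out deficient pool 1 took the beta ring median to -0.12 and leaving out wild type pool 1 to -0.10, and it turned above 0 without deficient pool 2 (0.09), without wild type pool 2 (0.12) and with median centring (0.02).

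The 3 immunoproteasome genes had differences of -0.04, -0.21 and -0.13, and none passed the adjusted test. Psmb8, which replaces Psmb5 in the immunoproteasome, stood at 11.47 and 10.94 in deficient cells and at 11.35 and 11.14 in wild type cells. The deficient pools lay outside the wild type pools on either side. The difference was -0.04 (SE 0.22, 95% interval -0.61 to 0.53, adjusted p = 0.988), and it turned to 0.23 without deficient pool 2 and to 0.07 without wild type pool 1. Psmb9, which replaces Psmb6, stood at 11.13 and 11.11 against 11.48 and 11.18. Both deficient pools were below, by little against wild type pool 2. The difference was -0.21 (SE 0.17, 95% interval -0.63 to 0.22, adjusted p = 0.868), and -0.06 without wild type pool 1. Psmb10, which replaces Psmb7, stood at 11.19 and 10.76 against 10.98 and 11.22, with overlap. Its difference was -0.13 (SE 0.21, 95% interval -0.65 to 0.39, adjusted p = 0.939), and 0.09 without deficient pool 2. Deficient pool 2 held the lowest value of all 3 genes, and in each of them a pair of pools from 1 group differed by more than the groups. The median over the 3 was -0.13, and leaving out a pool took it to -0.30 (deficient pool 1), 0.09 (deficient pool 2) or -0.06 (wild type pool 1).

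The 6 ATPase genes of the 19S ring had a median difference of -0.09, with 5 below 0. Psmc5 had values of 8.64 and 8.87 in deficient cells and 9.37 and 9.10 in wild type cells. Both deficient pools were below both wild type pools. The difference was -0.49 (SE 0.18, 95% interval -0.93 to -0.04, unadjusted p = 0.0378, limma adjusted p = 0.782), or 1.40-fold lower, and it rests on a single probe set. It stayed between -0.62 and -0.35 when each pool was left out in turn, with an unadjusted p under 0.05 only without wild type pool 2. Psmc4 stood at 11.45 and 11.54 against 11.61 and 11.71, without overlap, differing by -0.16 (SE 0.15, adjusted p = 0.876). Psmc2 stood at 12.88 and 12.77 against 12.76 and 12.88, the pools of each group covering the same range, differing by 0.0069 (SE 0.15). Its sign turned with deficient pool 1 left out (-0.05) or wild type pool 1 left out (-0.05). Psmc6 had a difference of -0.09 on its brightest probe set, where the pools stood at 10.26 and 10.44 against 10.40 and 10.49. Another probe set of Psmc6, nearly as bright, read 9.82 and 9.79 against 10.53 and 10.04, differing by -0.49 without overlap. A dimmer probe set of Psmc6 read 6.05 and 6.04 against 7.97 and 6.66, differing by -1.26 and highest in wild type pool 1. The ATPase median was -0.18 without wild type pool 1 and -0.0067 without wild type pool 2.

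The 3 other base subunits serve as scaffold and ubiquitin receptors, and had a median difference of -0.09. Psmd2, a scaffold of the base, had values of 10.20 and 10.56 in deficient cells and 11.15 and 10.67 in wild type cells. Deficient pool 1 was the lowest and wild type pool 1 the highest, without overlap. The difference of -0.53 (SE 0.23, 95% interval -1.12 to 0.05, limma adjusted p = 0.800), or 1.45-fold lower, was the lowest of all members. It was -0.29 without wild type pool 1 and -0.26 when the probe sets of the gene were averaged. The other probe set of Psmd2 was dim, at 4.02 and 4.14 against 4.06 and 4.05. Psmd4, the ubiquitin receptor known as Rpn10, stood at 10.27 and 10.40 against 10.41 and 10.44, differing by -0.09 (SE 0.14) without overlap. Dimmer probe sets of Psmd4 gave -0.53 without overlap and 0.04 with overlap. Psmd1, the other large scaffold, stood at 11.43 and 11.11 against 11.19 and 11.31, differing by 0.02 (SE 0.18) with overlap, and its sign turned with deficient pool 1 left out (-0.14) or wild type pool 1 left out (-0.05).

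The 8 lid genes had a median difference of -0.06, with 6 below 0. Psmd12, a structural lid subunit, had values of 9.35 and 9.40 in deficient cells and 9.78 and 9.75 in wild type cells. The pools of each group lay close together and the groups apart. The difference was -0.39 (SE 0.14, 95% interval -0.75 to -0.04, unadjusted p = 0.0361, limma adjusted p = 0.782), or 1.31-fold lower, from a single probe set. It ran from -0.41 to -0.37 when each pool was left out in turn, and its unadjusted p was above 0.05 each time. Psmd6, another structural subunit, stood at 11.79 and 11.78 against 12.05 and 11.97, differing by -0.22 (SE 0.14, adjusted p = 0.842) without overlap, and a second probe set gave -0.20. Psmd3 stood at 9.85 and 10.05 against 10.06 and 9.86, differing by -0.01 (SE 0.16). Its groups covered the same range, and its sign turned with deficient pool 1 left out (0.09) or wild type pool 1 left out (0.08). Psmd14, the enzyme that removes ubiquitin chains in the lid, stood at 11.71 and 11.93 against 11.98 and 11.79, with overlap. The remaining lid genes, Psmd7, Psmd8, Psmd11 and Psmd13, overlapped between groups as well.

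Among the activators, Psme1, the PA28 alpha subunit that is induced by interferon and opens the core, had values of 11.39 and 11.28 in deficient cells and 11.64 and 11.74 in wild type cells. Both deficient pools were lower, and the pools of each group differed by less than the groups. The difference was -0.35 (SE 0.15, 95% interval -0.72 to 0.02, limma adjusted p = 0.796), or 1.28-fold lower, and it stayed between -0.41 and -0.30 when each pool was left out. Psme3, the nuclear PA28 gamma subunit, stood at 8.83 and 8.79 against 8.66 and 8.89, with overlap, differing by 0.03 (SE 0.16), and by -0.09 without wild type pool 1. Psme4, which encodes PA200, stood at 10.43 and 10.58 against 10.42 and 10.59. The groups covered the same range, with a difference of -0.0013 (SE 0.16) that ran from -0.09 without wild type pool 1 to 0.08 without wild type pool 2. The probe sets of Psme4 disagreed. Its second brightest gave -0.26, lower without overlap. Dimmer ones gave 0.29, 0.53 and 0.41, each higher without overlap, and 0.04 with overlap.

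**Figure D3:**
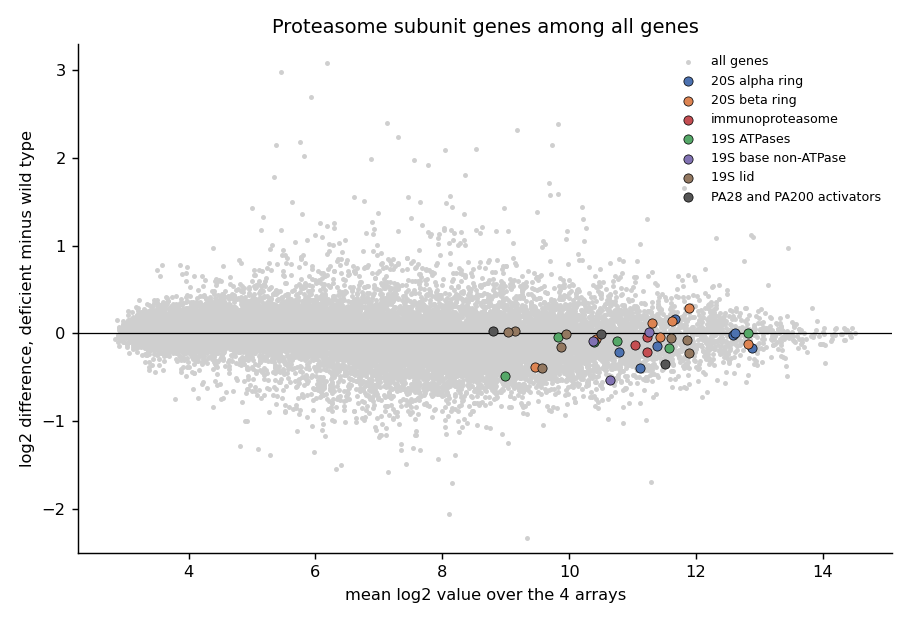
Log2 difference, deficient minus wild type, against the mean log2 value over the 4 arrays, with 1 grey point for each of the 18193 genes and the 37 proteasome subunit genes coloured by subunit group. The members have means of 8.79 or more and lie between -0.53 and 0.29 in the difference.

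For 29 of 37 members (78.4%) the pools of 1 group differed by more than the groups did, against 76.7% of all genes. Wild type pool 2 stood above wild type pool 1 for 24 members, with a median of 0.12 over the members against 0.03 over all genes, and the beta ring had a median of 0.37. Wild type pool 2 held the highest value for 18 members (48.6%, against 27.4% of all genes) and the lowest for 0 (against 19.2%). Deficient pool 2 held the lowest value for 15 members (40.5%, against 21.9%) and the highest for 1, Psmb3 (2.70%, against 19.9%). The median of deficient pool 2 minus deficient pool 1 was -0.09 over the members, -0.23 in the beta ring and -0.44 in the immunoproteasome. Psmb1, Psmb3 and Psmb6 shared the low value in wild type pool 1, where they lay 0.75, 0.77 and 0.90 under wild type pool 2.

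**Figure D4:**
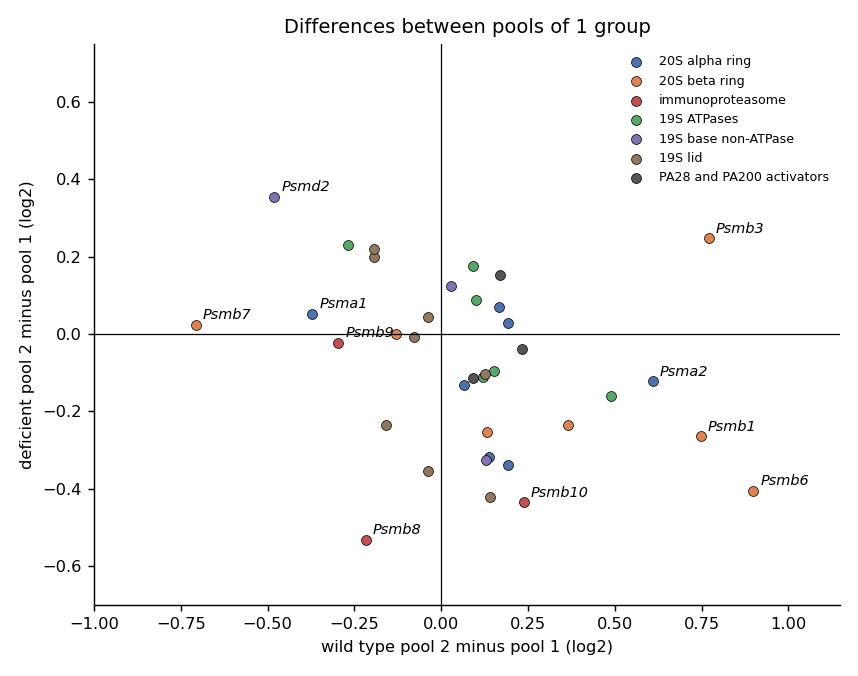
Difference between the pools of 1 group for the 37 proteasome subunit genes: wild type pool 2 minus pool 1 on the horizontal axis and deficient pool 2 minus pool 1 on the vertical axis, both in log2 units, coloured by subunit group. Psmb1, Psmb3 and Psmb6 lie at the right, from 0.75 to 0.90, and the immunoproteasome genes Psmb8 and Psmb10 lie low, at -0.53 and -0.44.

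The array held 81 probe sets for the 37 members, 16 members having 1 and 21 having several. Of the 44 probe sets not used for a gene, 27 had a difference below 0. At an unadjusted p under 0.05, 2 were lower, of Psma5 and Psmc6, and 1 was higher, of Psme4. The brighter ones leaned the same way as the members: of 12 with a mean at least that of the dimmest member, 11 were below 0. For 13 members the probe sets of the gene differed in sign. Psma6 was one of them, with a second probe set at 11.01 and 11.08 in deficient cells and 11.48 and 11.25 in wild type cells, differing by -0.32. These probe sets share the RNA of the same pools and are not independent of each other.

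Proteins that assemble the proteasome or work beside it were measured for 20 of 22 listed genes, and 0 passed an unadjusted p of 0.05 in either direction (against 4.04% of all genes lower and 2.19% higher). Their median difference was -0.13, with 15 below 0, and it was -0.20 without wild type pool 1 and -0.06 without wild type pool 2. Ubqln1, a shuttle that carries ubiquitinated proteins to the proteasome, stood at 11.00 and 10.88 in deficient cells and 11.53 and 11.19 in wild type cells, without overlap. The difference of Ubqln1 was -0.42 (SE 0.18, limma adjusted p = 0.798). Psma8, a testis-type alpha subunit, stood at 7.86 and 8.18 against 8.36 and 8.41, differing by -0.37 (SE 0.17). The assembly chaperone gene Pomp stood at 10.41 and 10.27 against 10.35 and 10.73, with overlap.

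Genes of the Nrf1 and Nrf2 route to proteasome gene expression were measured for 7 of 8, with a median of -0.08, or 0.02 when probe sets were averaged. An unadjusted p under 0.05 was reached by 1 lower gene (14.3%, against 4.04% of all genes) and 0 higher ones (against 2.19%). That gene was Ngly1, the cytosolic glycanase that processes Nrf1, at 10.28 and 10.44 in deficient cells and 10.74 and 10.90 in wild type cells. Its groups did not overlap, and its difference was -0.46 (SE 0.15, limma adjusted p = 0.761). Nfe2l1, which encodes Nrf1, stood at 8.62 and 8.58 against 8.74 and 8.62, near each other in all pools. Nfe2l2, which encodes Nrf2, stood at 10.55 and 10.44 against 10.89 and 10.57, without overlap. Mafg, a small Maf partner of both, had a difference of -0.24 (SE 0.15), with 8.52 and 8.38 against 8.64 and 8.73.

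Ubiquitin and ubiquitin-charging genes were measured for 11 of 17, with a median of -0.14. That median was -0.05 without wild type pool 1 and -0.06 when probe sets were averaged. An unadjusted p under 0.05 was reached by 0 lower genes (against 4.04% of all genes) and 1 higher one (9.09%, against 2.19%). The higher one was Ube2c, the ubiquitin-conjugating enzyme of the anaphase-promoting complex, at 10.26 and 9.97 in deficient cells and 9.74 and 9.49 in wild type cells. Every deficient value was above the wild type values, and the difference was 0.50 (SE 0.18, limma adjusted p = 0.782). Ube2d1, a broadly acting conjugating enzyme, stood at 5.70 and 6.31 against 6.80 and 6.22, with overlap. Among ubiquitin ligases and adaptors for cell cycle proteins, 21 of 21 were measured, with a median of -0.09, which became 0.02 without wild type pool 2. At an unadjusted p under 0.05, 0 were lower (against 4.04% of all genes) and 1 was higher (4.76%, against 2.19%). The higher one was Fbxo5, an inhibitor of the anaphase-promoting complex and a known E2F target, at 11.31 and 10.93 against 10.63 and 10.33. Its groups did not overlap, and its difference was 0.64 (SE 0.20, limma adjusted p = 0.761). Btrc, a substrate adaptor of the SCF ligase, stood at 6.22 and 6.62 against 6.80 and 6.90, differing by -0.43 (SE 0.19, adjusted p = 0.801).

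MHC class I antigen processing, the pathway that receives the peptides of the immunoproteasome, was measured for 11 of 12 listed genes. An unadjusted p under 0.05 was reached by 4 lower genes (36.4%, against 4.04% of all genes) and 0 higher ones (against 2.19%). None passed an adjusted p of 0.05, and the median difference was -0.42. Both deficient pools lay below both wild type pools for 7 of the 11 (63.6%, against 18.5% of all genes). In the brighter set that share was 25.6%. Nlrc5, the transactivator of MHC class I genes, stood at 9.19 and 9.15 in deficient cells and 10.11 and 9.56 in wild type cells, differing by -0.67 (SE 0.22, limma adjusted p = 0.761). Pdia3, a chaperone of the peptide-loading complex, stood at 8.38 and 8.35 against 9.55 and 8.76, differing by -0.79 (SE 0.28, adjusted p = 0.782). In both genes the deficient pools lay together, below both wild type pools, with wild type pool 1 highest. The other such genes, named after their values were seen, were Irf1, an interferon-induced activator, and Tapbpl, a peptide editor. Irf1 stood at 10.03 and 10.18 against 11.04 and 10.44, and Tapbpl at 7.91 and 8.15 against 8.50 and 8.42, both without overlap. B2m, the light chain of MHC class I, stood at 13.85 and 13.88 against 14.34 and 14.05, differing by -0.33 (SE 0.16, adjusted p = 0.812). Without wild type pool 1, the difference was -0.39 for Nlrc5, -0.39 for Pdia3, -0.34 for Irf1 and -0.19 for B2m.

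Tap1, which starts from the same stretch as Psmb9, stood at 9.32 and 9.82 in deficient cells and 10.31 and 9.39 in wild type cells, differing by -0.28 (SE 0.35, adjusted p = 0.912). Its groups overlapped, and without wild type pool 1 the difference was 0.18. Wild type pool 1 held the highest value of 11 of the 11 MHC class I genes measured (100%, against 26% of all genes). The median of these genes was -0.19 without it and -0.68 without wild type pool 2. The same pool was highest for Psmb9 but not for Psmb8, Psmb10 or Psme1. The same pool had the highest values of the 4 MHC class II genes and the lowest summed levels of neutrophil, erythroid and B cell markers given above. Macrophage and monocyte, T and NK cell, and endothelial and stromal markers also summed lowest there, the last by little. Megakaryocyte markers did not, and HSC-associated genes summed highest there, at 14.22. The part of these cells in these values was not tested. The other dendritic cell genes were mixed in that pool: Ciita was highest there, Siglech and Irf8 were lowest, and Flt3, Zbtb46 and Itgax were neither.

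**Figure D5:**
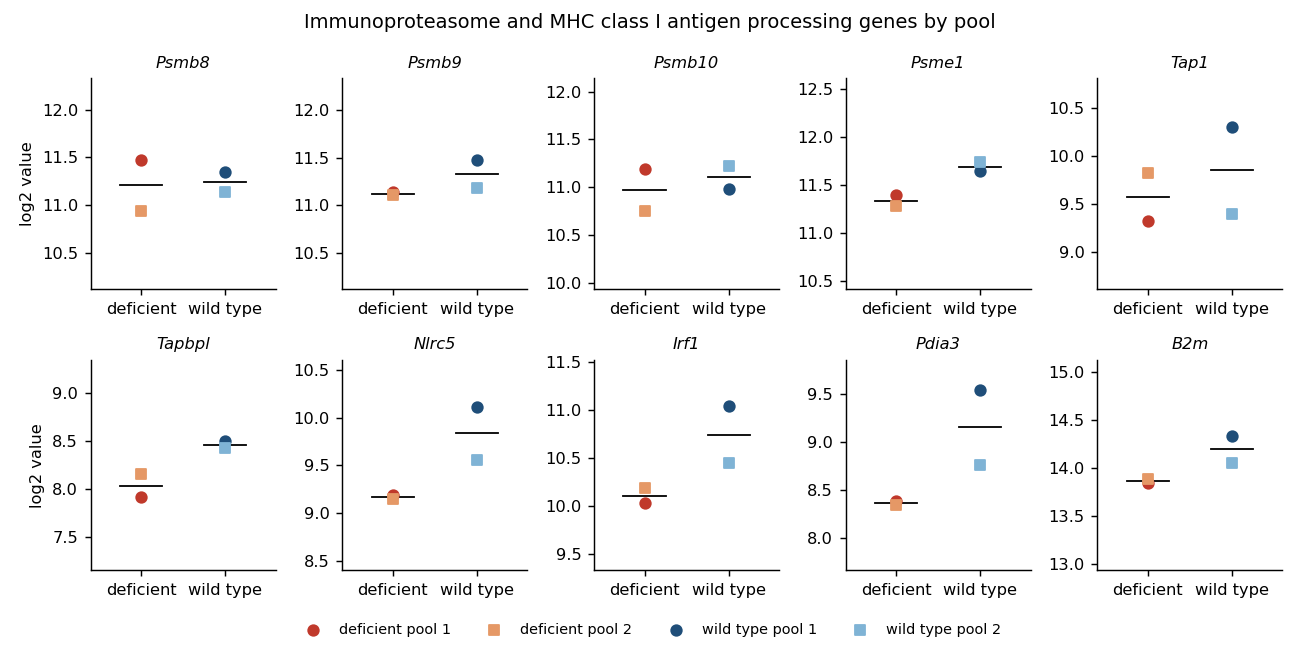
Log2 values of the 3 immunoproteasome genes, Psme1 and 6 MHC class I antigen processing genes in each pool; circles are pool 1, squares pool 2, and bars the group means of 2 pools, and all panels span the same height in log2 units. Wild type pool 1 lies highest for Psmb9 and for all 6 MHC class I genes drawn, and the deficient and wild type points overlap for Psmb8, Psmb10 and Tap1.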

How the data were processed

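The deposited table gives, for each array, the log2 signal of every probe set after RMA, per the submitters' processing notes, which also list limma but no versions. Because RMA gives the arrays nearly the same distribution, a shift in the RNA content of a cell is not visible in them, and it compresses folds of dim probe sets. Detection calls were not used here. The precision is limited by the number of arrays, 2 in each group.

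Of 45101 probe sets, 34945 had exactly 1 gene symbol in the platform annotation and 932 had several. Symbols were updated through Entrez gene IDs with RefSeq GRCm38.p6 (34741 found). The brightest such probe set stood for each of 18193 genes, with no filter on low values. With limma 3.58.1 in R 4.3.3 (functions lmFit and eBayes), deficient minus wild type differences were fitted over all genes with no block and Benjamini-Hochberg adjustment at 0.05. SE is limma's moderated standard error. The fit was tested on simulated data.

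Alternatives were each pool left out, a replicate block, averaged probe sets, probe sets of unshared sequence first, median centring, a filter on dim genes and a trended robust prior. The labels do not say whether same-numbered pools belong together. Their deviations correlated at -0.19 over all genes, which cannot decide it, as pools handled together need not deviate alike. Named genes were the catalytic and immunoproteasome subunits, in each other subunit group the 2 of lowest limma p and the 1 nearest 0, and in each pathway list the 2 of lowest p; Tap1, Irf1, Tapbpl, B2m and genes given by pool values alone were added after their values were seen. The members and lists were chosen with earlier results of these data known.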

Additional observations from a re-analysis of the deposited data

How the results depend on the processing

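No member passed an adjusted p of 0.05 under any of the 11 alternatives. The count of members lower at an unadjusted p under 0.05 was 2 in the reported fit, and the count of higher members was 0. Lower members numbered 0 with the replicate block (2.51% of all genes lower), with median centring (2.91%) and with the trended robust prior (3.23%). Without dim genes the number was also 0, against 4.5% of the genes kept. It was 5 with the mean of probe sets (4.06% of all genes lower) and 4 with specific probe sets first (4.35%). A block that paired pool 1 with pool 2 across the groups gave 3 (6.33% of all genes lower). It was added after seeing the data, because the deviations of same-numbered pools correlated negatively (-0.19).

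Left-out pools moved the median of the alpha ring between -0.21 and -0.033, of the ATPases between -0.18 and -0.0067, of the other base subunits between -0.15 and -0.072 and of the lid between -0.16 and -0.030. With the mean of probe sets the median was -0.19 for the ATPases, -0.19 for the other base subunits and -0.19 for the activators, and with specific probe sets first it was -0.26 for the activators. Median centring gave -0.032 for the other base subunits and -0.0066 for the lid.

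Of 36 named genes, 24 kept their sign under all 11 alternatives. By construction the replicate blocks, the filter on dim genes and the trended robust prior leave a difference unchanged. No sign could turn under them, and many of the named genes were picked for a low p in the reported fit. With each pool left out in turn, the other 12 crossed 0: Psmb5 between -0.16 and 0.089, Psmb6 between -0.33 and 0.57, Psmb8 between -0.30 and 0.23, Psmb10 between -0.35 and 0.088, Psma6 between -0.081 and 0.086, Psmb3 between -0.096 and 0.67, Psmc2 between -0.054 and 0.068, Psmd1 between -0.14 and 0.18, Psmd3 between -0.11 and 0.088, Psme3 between -0.086 and 0.15, Psme4 between -0.086 and 0.083 and Tap1 between -0.74 and 0.18. The mean of probe sets turned Psmb8 to 0.0019, Psma6 to -0.15, Psmb3 to -0.012, Psmc2 to -0.20, Psme3 to -0.19 and Psme4 to 0.17. Specific probe sets first turned Psma6 to -0.32, Psmb3 to -0.31 and Psmc2 to -0.12. Median centring turned Psmb5 to 0.017, Psmb8 to 0.017, Psmd3 to 0.043 and Psme4 to 0.053. The cause of these turns was not tested beyond the other probe sets and pools that enter by construction.

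With 2 pools in each group, the unadjusted 95% intervals of the members reached up to 1.12 log2 units from 0. Detection calls were not used, so signal over background is unknown.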

Other observations

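Psme2, the PA28 beta subunit, was represented only by a probe set that the annotation shares with Psme2b, and it entered no comparison. That probe set read 11.37 and 10.99 in deficient cells and 11.15 and 11.58 in wild type cells, with overlap.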
